A study of Homo sapiens with 3 samples.

Results

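BP 24 h against BP 3 h compares a late with an early harvest of the same treatment. LNCaP, a human line of androgen-sensitive prostate cancer cells that makes prostate-specific antigen, was treated with 70 µg/ml BP (n-butylidenephthalide, a phthalide isolated from Angelica sinensis) for 24 h or for 3 h, and total RNA of each culture was hybridized to 1 Affymetrix Human Gene ST array. The members were all transcript clusters to which the deposited annotation gave 1 gene symbol. They numbered 20087 of 33297 clusters and stood for 19208 genes. Where more than 1 cluster stood for a gene, the brightest by its mean over both BP arrays was taken. The series held 3 arrays, and the remaining one, of control LNCaP cells, took no part in the comparison. Neither vehicle nor harvest time is stated in its label, and its values are quoted only as a further level for a few genes. The values are log2 values as deposited, and a difference is the BP 24 h value minus the BP 3 h value. The study's threshold of 2-fold, which is 1 on this scale, was used to count genes as higher or lower. With 1 array per time there was no test and no p-value, and no value has a replicate check. Both cultures received BP, so the comparison holds whatever differs between the harvests, including time in culture and cell density, and these cannot be told apart from the length of the treatment.

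Cells that leave the division cycle stop making the RNAs for DNA replication and for mitosis. Replication genes are switched on by E2F factors as a cell passes from G1 into S phase, and mitosis genes later, in G2, through the MuvB complex with B-MYB and FOXM1. In resting or p21-arrested cells both sets are held down by the DREAM complex and by proteins of the retinoblastoma family. In prostate epithelium androgen raises the kallikrein genes and much lipid synthesis. The unfolded protein response, run by the sensors PERK, IRE1-α and ATF6, raises ER chaperones and, through ATF4, the transcription factor CHOP.

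At 24 h of BP, 156 genes exceeded their 3 h value by at least 2-fold and 460 lay at least 2-fold below it, which was 0.812% and 2.39% of the 19208 genes. The larger the difference, the more often the gene was lower at 24 h. At 4-fold 14 genes were higher (0.0729% of all genes) and 127 lower (0.661%), and at 8-fold 1 gene was higher (0.00521%) and 12 were lower (0.0625%). The median difference over all genes was 0.00 with an SD of 0.38 over genes, and 43.2% of genes had exactly the same value on both arrays. Because RNA of whole cultures was measured, fewer cells of a kind (such as cells in S phase or mitosis) and less RNA per cell cannot be told apart. The scatter of the BP 24 h values against the BP 3 h values shows most genes on the diagonal and a broad cloud of genes below it.

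**Figure D1:**
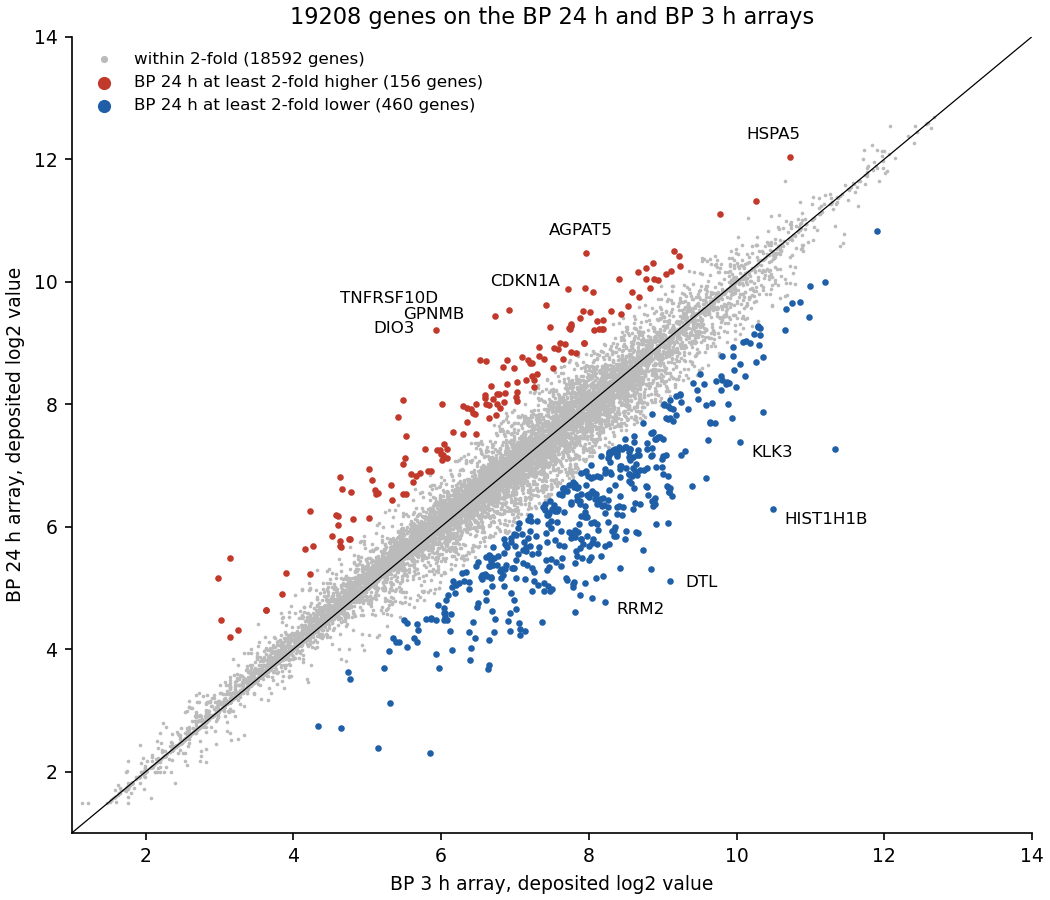
Deposited log2 value of each of 19208 genes on the BP 24 h array (vertical axis) and on the BP 3 h array (horizontal axis), 1 array each, with the line of equal values. The 460 genes at least 2-fold lower at 24 h (blue) reach farther from the line than most of the 156 at least 2-fold higher (red).

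Calls were not spread evenly over expression levels. The genes were divided into 4 equal groups by their mean over both BP arrays. In the group with the lowest means, 9 were at least 2-fold higher and 9 lower at 24 h, and 73.6% had equal values. In the group with the highest means, 80 were higher and 173 lower, and 19.4% had equal values. The group with means of 6.05 to 7.41 held the most genes called lower, 197 of 4802. Genes with low values were thus rarely called in either direction. In 20 of the called genes more than 1 cluster was available. In 18 of these all clusters differed in the same direction and in 15 all passed 2-fold, the exceptions in direction being RBL1 and SRXN1, each with a further cluster of equal value on both arrays. For FAM48B1, HGD, MCCC2, MDC1 and TUBB the clusters had identical differences (-1.08 on each for TUBB). Their agreement is therefore no independent check.

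**Figure D2:**
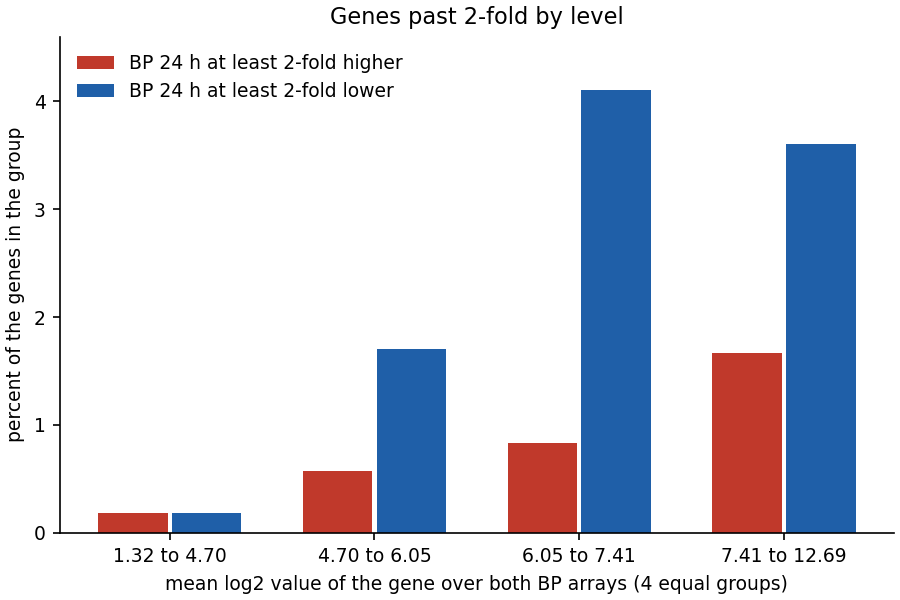
Percent of genes at least 2-fold higher (red) or lower (blue) at BP 24 h than at BP 3 h, in 4 equal groups of genes by their mean log2 value over both BP arrays. Both percentages were 0.185 in the lowest group, and in the highest they were 1.67 for higher and 3.60 for lower.

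The identity of the cells was checked on marker genes. All 10 measured luminal prostate and LNCaP markers lay above the median level of all genes, with values of 6.31 to 11.1 on the BP 24 h array and 8.26 to 10.7 on the BP 3 h array. Of these 10, 6 were at least 2-fold lower at 24 h and none was higher, and FOLH1 was not measured by a cluster with 1 symbol. Among 8 markers of PC-3, DU-145 or mesenchymal cells, 2 lay above that median, of 3 basal markers 1 did, and of 9 markers of stroma, endothelium and blood 1 did.

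The largest differences among genes expressed above the median on either BP array were decreases of replication and mitosis genes. HIST1H1B, a linker histone gene at 6p22-p21.3, had a value of 6.29 at 24 h against 10.49 at 3 h, a difference of -4.20 or 18.4-fold. HIST1H2BM, a core histone gene of the same cluster, had 7.28 at 24 h against 11.33 at 3 h. DTL, at 1q32.1-q32.2, the substrate receptor of the ubiquitin ligase that removes the licensing factor CDT1 in S phase, had 5.11 at 24 h against 9.10 at 3 h, a 15.9-fold lower value. FAM111B (-3.54), RRM2 (-3.45) and CENPI (-3.21) followed, then ESCO2 (-3.21), which acetylates cohesin in S phase, and CDC2 (-3.12), the deposited symbol of the gene for the kinase CDK1. All 20 of the largest decreases except ESCO2 were members of the replication, histone or mitosis lists, and on the control array each of the 20 had a value within 0.48 of its BP 3 h value.

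**Figure D3:**
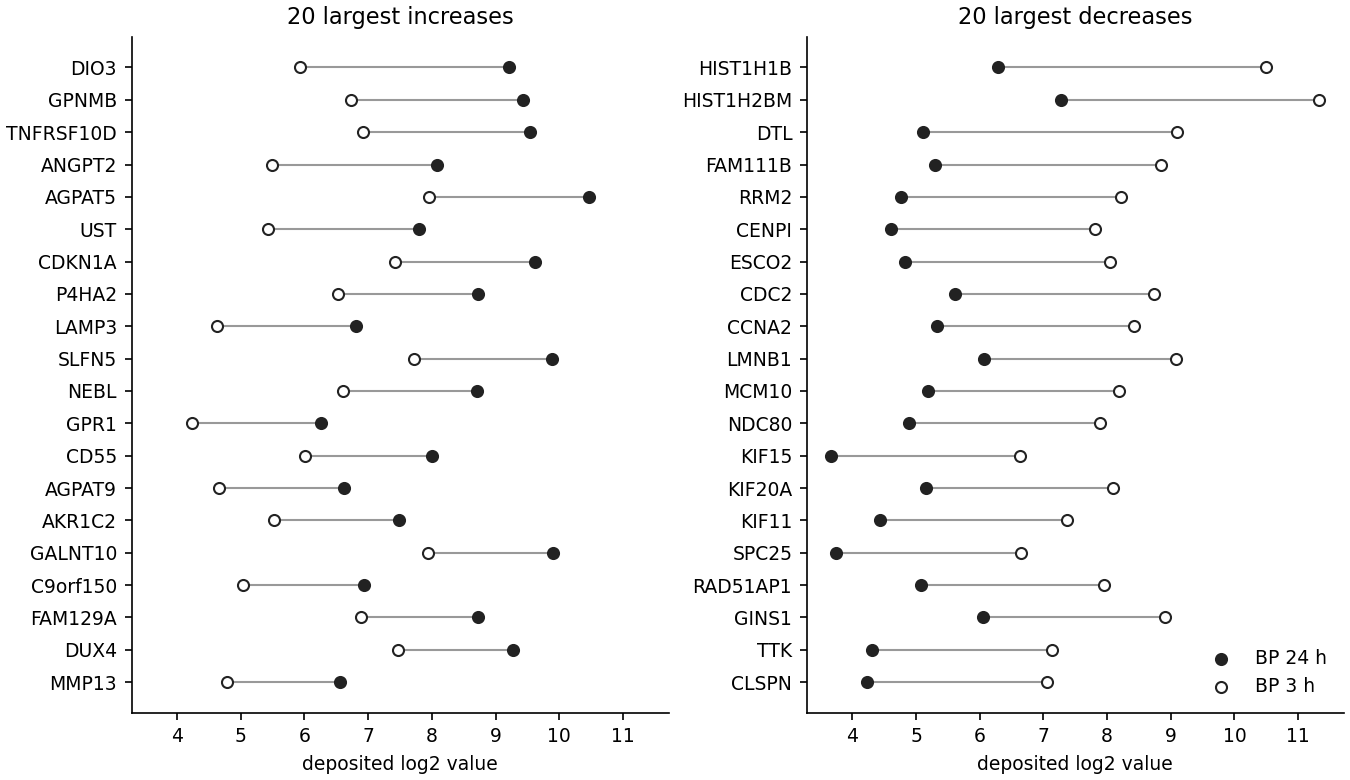
Log2 values at BP 24 h (filled) and BP 3 h (open) of the 20 genes with the largest increase (left) and the 20 with the largest decrease (right) among genes whose higher value on the BP arrays lay above the median. Differences run between 3.28 (DIO3) and 1.78 (MMP13) on the left and between -4.20 (HIST1H1B) and -2.83 (CLSPN) on the right.

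Of 89 measured G2/M and mitosis genes, 81 (91.0%) were at least 2-fold lower at 24 h than at 3 h and none was higher, with a median difference of -2.00 against 0.00 over all genes. The median value of the list was 5.94 at 24 h and 8.03 at 3 h, and it was 8.04 on the control array. The cyclins and kinases that start mitosis were all lower by more than 2-fold, 7 of 7, between -1.38 for AURKB and -3.12 for CDC2. CCNA2, cyclin A2, had 5.33 at 24 h against 8.42 at 3 h. All 11 kinesins of the list were lower, with KIF15 at 3.67 at 24 h against 6.63 at 3 h and KIF11, the motor that separates the spindle poles, at 4.44 at 24 h against 7.37 at 3 h. Of 12 centromere and kinetochore genes 11 were lower, among them NDC80, a microtubule-binding subunit of the outer kinetochore, with 4.89 at 24 h against 7.88 at 3 h. Of 7 spindle checkpoint genes 6 were lower, led by the kinase TTK with 4.30 at 24 h against 7.13 at 3 h, and all 7 condensin subunits were lower, with differences between -2.73 and -1.42. LMNB1, lamin B1 of the nuclear lamina, had 6.06 at 24 h against 9.07 at 3 h. FOXM1 (-1.48) and MYBL2 (-1.52), which encode the activators of this gene set, were lower as well. The 8 members within 2-fold were TROAP (-0.94), INCENP (-0.93), CENPM (-0.68), UBE2S (-0.60), BUB3 (-0.41), CDC25B (-0.20), CKS1B (0.00) and MAD2L2 (0.04).

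Promoter sequences were searched because the mitosis and replication genes were lower together. RefSeq promoters (GRCh38.p14), 250 bases before to 50 bases after a start site, were found for 13904 of the genes, and for a gene with several starts the first listed was used. Each motif was searched on both strands. TTTGAA, the core of the cell cycle genes homology region (CHR) to which MuvB binds, was present in 47 of 74 promoters of the G2/M list (63.5%), in 3 of 60 of the G1/S list (5.00%) and in 11.9% of all promoters. It was also present in 9 of 23 histone promoters (39.1%). The markers of fibroblasts, endothelium and blood, a list with no gene at least 2-fold lower, held it in 4 of 9 promoters (44.4%). CCAAT, the site of NF-Y, was present in 70.3% of the G2/M promoters and in 36.4% of all promoters, but also in 56.7% of G1/S, 95.7% of histone, 66.7% of sterol and fatty acid, 64.6% of ER chaperone and 62.9% of integrated stress response promoters, the last 2 of lists with no gene at least 2-fold lower. Among all genes at least 2-fold lower at 24 h, 27.9% of 377 promoters held TTTGAA, against 8.18% of 110 promoters of genes at least 2-fold higher. Within the G2/M list, 45 of 47 genes with TTTGAA and 24 of 27 without it were at least 2-fold lower, with medians of -2.16 and -1.89. A match is a description of the letters and no evidence of binding. The promoters are shown of NDC80, the G2/M gene with the lowest difference among those with TTTGAA (chr18:2571307-2571606, plus strand), and of KIF11 (chr10:92592880-92593179, plus strand) and SPC25 (chr2:168890381-168890680, minus strand), the 2 with the lowest differences among those that also hold CCAAT, with both motifs in capitals on either strand (TTCAAA and ATTGG where they run on the opposite strand).
NDC80: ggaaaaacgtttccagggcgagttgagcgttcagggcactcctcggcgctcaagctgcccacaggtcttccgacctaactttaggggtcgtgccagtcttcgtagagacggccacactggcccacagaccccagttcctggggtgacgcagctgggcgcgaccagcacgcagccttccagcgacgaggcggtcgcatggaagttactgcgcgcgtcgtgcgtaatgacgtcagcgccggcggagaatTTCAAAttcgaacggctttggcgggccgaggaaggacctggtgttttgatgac
KIF11: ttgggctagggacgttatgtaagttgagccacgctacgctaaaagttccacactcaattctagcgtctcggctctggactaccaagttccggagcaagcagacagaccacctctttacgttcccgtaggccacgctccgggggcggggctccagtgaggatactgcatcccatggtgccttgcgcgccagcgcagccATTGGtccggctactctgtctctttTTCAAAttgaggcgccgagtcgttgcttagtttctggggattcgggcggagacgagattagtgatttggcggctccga
SPC25: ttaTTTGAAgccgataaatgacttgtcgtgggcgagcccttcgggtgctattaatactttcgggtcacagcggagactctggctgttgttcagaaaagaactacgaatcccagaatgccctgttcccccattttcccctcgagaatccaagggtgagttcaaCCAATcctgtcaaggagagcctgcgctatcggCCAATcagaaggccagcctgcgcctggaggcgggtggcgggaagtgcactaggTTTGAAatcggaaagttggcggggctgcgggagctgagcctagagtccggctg
NDC80 and KIF11 carried 1 match of TTTGAA each, close to the start site and on the opposite strand. SPC25 carried 2 matches of TTTGAA and 2 of CCAAT, and one of its TTTGAA matches also lay close to the start.

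Of 75 measured G1/S and DNA replication genes, 54 (72.0%) were at least 2-fold lower at 24 h and none was higher, with a median of -1.57. The replicative helicase stood out by how evenly its subunits differed. MCM2 to MCM7, 6 of 6, had differences between -2.63 and -2.20, and MCM6 had 6.50 at 24 h against 9.13 at 3 h. All 4 GINS subunits were lower, and GINS1 had 6.05 at 24 h against 8.91 at 3 h. MCM10 (5.19 at 24 h against 8.19 at 3 h) and CDC6 (6.79 at 24 h against 9.58 at 3 h), which load and start the helicase, were lower too. Among enzymes that supply deoxynucleotides, 4 of 6 were lower. RRM2, the small subunit of ribonucleotide reductase made in S phase, had 4.77 at 24 h against 8.22 at 3 h, whereas its partner RRM1 differed by -1.33, and DUT had equal values on both arrays. Of the 5 subunits of the clamp loader 3 were lower, with RFC2 at -0.85 and RFC1 at -0.59. CLSPN, claspin of the replication checkpoint, had 4.24 at 24 h against 7.06 at 3 h, and RAD51AP1 had 5.08 at 24 h against 7.95 at 3 h. The E2F genes themselves differed unequally. E2F7 (-1.87) and E2F8 (-1.28), the repressors, were at least 2-fold lower, whereas E2F1 (-0.48), E2F2 (-0.73) and E2F3 (-0.33) were within 2-fold.

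Regulators of the G1/S passage were read at the RNA level. Of these the study blotted p16, p21, p27, CDK2, cyclin D1 and phosphorylated Rb as proteins. It reported that the inhibitors p16, p21 and p27 rose with time. CDK2 had 6.51 at 24 h against 8.43 at 3 h (-1.92), and CCND1, cyclin D1, had 7.70 at 24 h against 8.73 at 3 h (-1.03). CCNE2 differed by -1.20 and CCNE1 by -0.86, CDK4 differed by -0.70, and CDK6 and CCND2 had equal values. Of 21 CDK inhibitors and growth arrest genes, 1 was at least 2-fold higher and 1 lower, with a median of 0.00. The higher one was CDKN1A, p21, with 9.63 at 24 h against 7.42 at 3 h, a 4.62-fold higher value. The lower one was RBL1, p107 of the retinoblastoma family, with 6.44 at 24 h against 8.26 at 3 h on its main cluster, and -0.91 when its clusters were averaged. CDKN1B, p27 (-0.06), CDKN2A, p16 (-0.01), and RB1 (-0.09) hardly differed in RNA, which is another measure than the blotted proteins.

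E2F-like letters, TTTNNCGC, were present in 30 of 60 promoters of the G1/S list, in 12.2% of 74 promoters of the G2/M list and in 9.03% of all promoters. They were also present in 33.3% of 33 repair promoters, 30.4% of 23 histone promoters and 30.8% of 13 ER stress sensor promoters. Among genes at least 2-fold lower 20.4% of promoters held them, and among genes at least 2-fold higher 8.18%. Within the G1/S list, 23 of 30 genes with the letters and 19 of 30 without them were at least 2-fold lower. DTL (chr1:212035498-212035797, plus strand) and GINS1 (chr20:25407423-25407722, plus strand) are shown as the 2 genes of the list with the lowest differences that hold the motif, which is in capitals and appears on the opposite strand in GINS1.
DTL: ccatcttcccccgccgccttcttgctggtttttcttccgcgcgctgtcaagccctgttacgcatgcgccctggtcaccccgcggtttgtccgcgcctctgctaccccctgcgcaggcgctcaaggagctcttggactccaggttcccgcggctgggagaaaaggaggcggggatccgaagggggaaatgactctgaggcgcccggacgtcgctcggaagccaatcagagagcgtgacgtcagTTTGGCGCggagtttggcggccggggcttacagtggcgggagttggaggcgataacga
GINS1: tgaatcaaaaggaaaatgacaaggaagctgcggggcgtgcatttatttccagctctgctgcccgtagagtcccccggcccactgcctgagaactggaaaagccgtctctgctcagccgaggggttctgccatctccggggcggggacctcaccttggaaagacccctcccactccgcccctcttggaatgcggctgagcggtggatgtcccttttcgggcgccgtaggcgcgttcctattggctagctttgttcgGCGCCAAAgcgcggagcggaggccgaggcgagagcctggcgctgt
In the G2/M and the G1/S list the matches gathered near the start site. In the 50 bases before it, 28.4% of G2/M promoters held TTTGAA and 26.7% of G1/S promoters held TTTNNCGC, against 1.70% and 1.71% of all promoters.

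**Figure D4:**
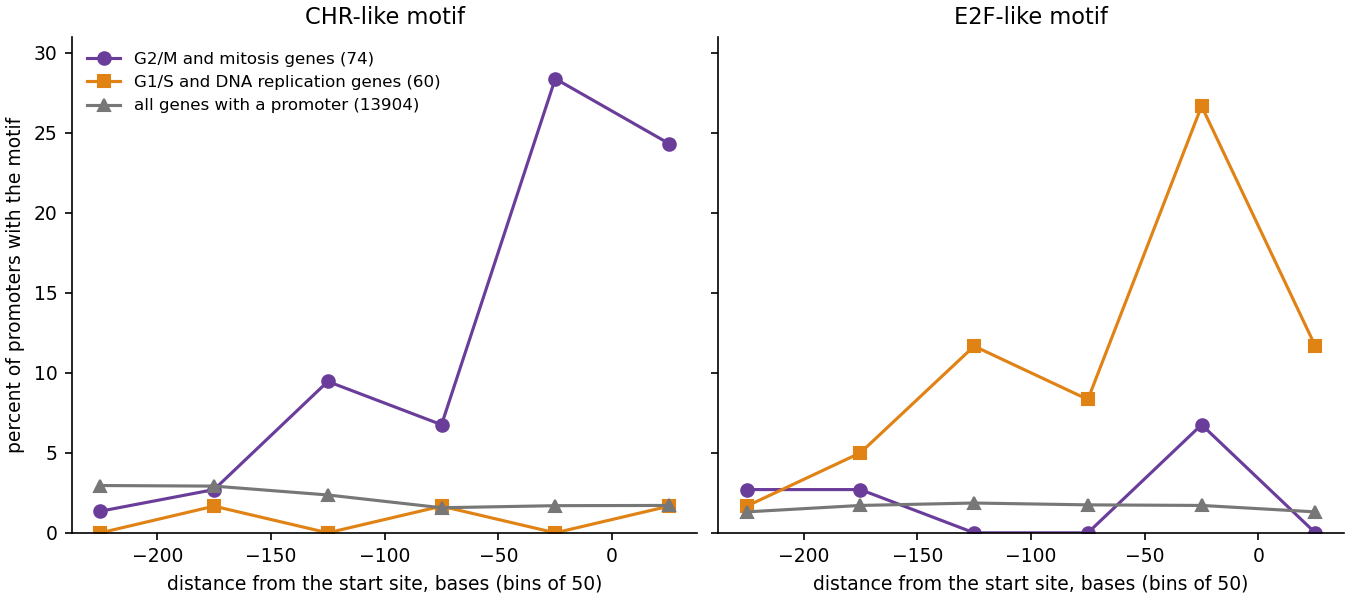
Percent of promoters that hold a CHR-like (left) or an E2F-like (right) motif in bins of 50 bases along the distance from the start site, for 74 G2/M promoters, 60 G1/S promoters and 13904 promoters of all genes. The CHR-like motif reaches 28.4% in G2/M promoters and the E2F-like motif 26.7% in G1/S promoters, both in the bin just before the start.

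Replication-dependent histone genes are transcribed in S phase and lack a poly(A) tail. Of 65 listed, 24 had a cluster with 1 symbol and the others are not counted here. Of these 24, 8 were at least 2-fold lower at 24 h and none was higher (median -0.65). Besides HIST1H1B and HIST1H2BM, HIST1H2AJ had 2.30 at 24 h against 5.85 at 3 h and HIST2H2AB had 7.87 at 24 h against 10.37 at 3 h. HIST1H1E had 9.42 at 24 h against 10.98 at 3 h. At the other end HIST2H2BE, HIST1H2BB and HIST1H1D had equal values. Histone copies are near-identical in sequence, so a probe set can read its neighbours and the assignment to a single copy is uncertain.

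Of 40 DNA repair genes, 20 were at least 2-fold lower at 24 h and none was higher (median -0.96). BRCA1 had 5.35 at 24 h against 7.63 at 3 h. BRIP1 had 4.33 at 24 h against 7.07 at 3 h, EXO1 had 5.09 at 24 h against 7.80 at 3 h, and the helicase gene BLM had 4.14 at 24 h against 6.65 at 3 h. Of 10 Fanconi genes 5 were lower, among them UBE2T with 6.37 at 24 h against 8.90 at 3 h. Of 5 mismatch repair genes 1 was lower, MSH6 (-1.24), while PMS2 had equal values and MSH3 differed by -0.13. The replication, histone, mitosis and repair lists together held 228 measured genes, of which 163 were at least 2-fold lower, 35.4% of all genes so called.

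Androgen-responsive genes were lower at 24 h as well, 21 of 42 by at least 2-fold, with 1 higher and a median of -1.04. KLK3, which encodes prostate-specific antigen, had 7.38 at 24 h against 10.05 at 3 h, a 6.37-fold lower value, and its neighbour KLK2 had 6.31 at 24 h against 8.26 at 3 h. TMPRSS2, the membrane protease gene, differed by -1.70, SLC45A3 had 7.17 at 24 h against 9.05 at 3 h, and HPGD, which degrades prostaglandins, had 5.15 at 24 h against 7.13 at 3 h. CENPN and NCAPD3 belong to this list and to the mitosis list. KLK4 (-0.47), CAMKK2 (-0.39), NDRG1 (0.00) and TRPV6 (0.03) were within 2-fold, and TMEM140 was the higher member, with 7.92 at 24 h against 6.40 at 3 h. Among 20 prostate epithelial identity genes 4 were lower and none was higher (median 0.00). They included the transcription factor genes SPDEF (6.92 at 24 h against 8.75 at 3 h) and HOXB13 (7.92 at 24 h against 9.14 at 3 h). FOXA1, a pioneer factor that opens closed chromatin, differed by -0.55, and the luminal keratin genes KRT8 (0.61) and KRT18 (0.26) had higher values at 24 h within 2-fold.

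UGT2B enzymes attach glucuronic acid to androgens and other compounds. The list of androgen inactivation enzymes held 4 of their genes as measured members, of which 3 were at least 2-fold lower. UGT2B4, outside the list, was lower as well (-1.59). UGT2B17 had 2.39 at 24 h against 5.14 at 3 h, UGT2B10 had 4.43 at 24 h against 7.06 at 3 h, and UGT2B28 had 3.69 at 24 h against 5.98 at 3 h. UGT2B7 had 1.99 on both arrays, a value near the floor, and UGT2B15 had no cluster with 1 symbol. The UGT2B genes lie side by side at 4q13 and resemble each other in sequence, so their clusters may share signal. AKR1C2, which reduces dihydrotestosterone, was 3.89-fold higher, with 7.48 at 24 h against 5.52 at 3 h. The related genes AKR1C1 (0.02) and AKR1C3 (0.49) were within 2-fold, and AKR1C4 had equal values. The counts for the list were 1 higher and 3 lower of 16 measured genes, with a median of 0.00. The 5-alpha reductase genes SRD5A1 (-0.02) and SRD5A2 (0.00) lay at or next to 0.

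Of 37 sterol and fatty acid synthesis genes, 12 were at least 2-fold lower at 24 h and none was higher (median -0.57). Among 11 fatty acid enzymes 5 were lower, including FASN (8.34 at 24 h against 9.89 at 3 h), ACACA (7.82 at 24 h against 9.19 at 3 h) and the desaturase FADS2 (8.68 at 24 h against 10.27 at 3 h). Among 18 cholesterol enzymes 3 were lower, among them EBP and DHCR7. SREBF1 (-1.07) and INSIG1 (-1.33), a regulator pair of this pathway, were lower, whereas INSIG2 was higher by 0.75 within 2-fold.

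The shares of genes at least 2-fold higher at 24 h were largest in the NRF2 and p53 target lists. They were 2.38% to 8.47% in the other lists with such a gene, against 0.812% of all genes. Every list is so short that 1 such gene alone exceeds 0.812%. A list with any such gene therefore lies above that share whatever it holds. Of 42 p53 targets, 7 (16.7%) were higher and none was lower (median 0.29). TNFRSF10D, a decoy receptor for TRAIL at 8p21, had 9.54 at 24 h against 6.92 at 3 h, a 6.13-fold higher value, and its control value was 8.26. CDKN1A was the next, followed by XPC, a DNA damage sensor (8.67 at 24 h against 7.20 at 3 h), TP53I3 (8.18 at 24 h against 6.86 at 3 h) and ZMAT3 (7.24 at 24 h against 5.94 at 3 h). TP53INP1 and MDM2, a ubiquitin ligase, were higher by 1.08 and 1.06. BAX (0.20), BBC3 (0.22) and PMAIP1 (0.12), the p53 targets of the BCL2 family, were within 2-fold.

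Of 38 NRF2 targets, 8 (21.1%) were higher and none was lower, with a median of 0.39, the highest of the 29 lists. HMOX1, heme oxygenase 1, had 8.61 at 24 h against 6.84 at 3 h. GCLM, the modifier subunit of glutamate-cysteine ligase, had 8.59 at 24 h against 6.99 at 3 h, and its partner GCLC differed by 0.99. SLC7A11, the cystine importer, had 11.33 at 24 h against 10.26 at 3 h. PGD (0.45), TKT (0.08) and TALDO1 (0.12), enzymes of the pentose phosphate pathway, were within 2-fold. SRXN1 was higher by 1.63 on its main cluster and by 0.82 with its clusters averaged, and SQSTM1, the autophagy receptor p62, by 1.33. NQO1 (0.47), a common reporter of NRF2, and TXNRD1 (0.88) were within 2-fold. The list shares AKR1C1, AKR1C2 and AKR1C3 with the androgen enzymes, and of these AKR1C2 alone passed 2-fold. It shares SQSTM1 with the autophagy genes and SLC7A11 with the integrated stress response genes.

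ER chaperone and sensor genes had smaller differences. Of 53 genes for ER chaperones, ER-associated degradation and ER export, 4 (7.55%) passed 2-fold upward and none downward, and 38 had a higher and 7 a lower value at 24 h (median 0.17). HSPA5, the chaperone GRP78/BiP, had 12.04 at 24 h against 10.73 at 3 h, a 2.48-fold higher value. SEC24D of the COPII coat had 8.39 at 24 h against 7.15 at 3 h, SEL1L of the degradation ligase had 9.61 at 24 h against 8.53 at 3 h, and ERO1LB had 5.80 at 24 h against 4.75 at 3 h. EDEM1 (0.94) and HYOU1 (0.82) lay just inside 2-fold, and CANX differed by 0.25. CALR and P4HB had exactly equal values on both BP arrays, repeats whose origin was not tested. The sensors ATF6 (9.62 at 24 h against 8.76 at 3 h) and ERN1, IRE1-α (8.17 at 24 h against 7.51 at 3 h), were higher within 2-fold, and EIF2AK3, PERK, differed by 0.13. Of the 14 sensor genes 1 was lower, CREB3L4 (5.90 at 24 h against 7.75 at 3 h), which is also an androgen-responsive gene, and the median was 0.07.

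The ER stress response element (CCAAT, any 9 bases, CCACG, which contains the NF-Y site) was present in 16 of 13904 promoters (0.115%) and in 6 of 48 promoters of the ER chaperone list (12.5%). Of these 16, HSPA5 and ERO1LB passed 2-fold upward at 24 h and none passed it downward. The promoter of HSPA5 (chr9:125241294-125241593, minus strand) is shown with the element in capitals.
HSPA5: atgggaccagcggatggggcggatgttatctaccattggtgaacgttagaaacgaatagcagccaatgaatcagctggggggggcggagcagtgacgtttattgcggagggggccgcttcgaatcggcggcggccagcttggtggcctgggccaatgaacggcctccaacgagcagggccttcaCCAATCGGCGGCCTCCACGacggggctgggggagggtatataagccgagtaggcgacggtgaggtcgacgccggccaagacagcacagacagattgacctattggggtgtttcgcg
For 4 further motifs the shares in genes at least 2-fold higher and in all promoters were 13.6% and 14.2% for TGACNNNGC, the core of the antioxidant response element, 2.73% and 2.68% for TGACGTCA, the CRE, 1.82% and 0.712% for TGATGCAA, the CHOP and ATF4 composite, and 66.4% and 60.9% for TGCNCNC, the core of the metal response element. Among genes at least 2-fold lower, 5.04% of promoters held TGACGTCA. TGATGCAA was present in 7 of 35 promoters of the integrated stress response list.

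Of 44 integrated stress response genes and CHOP targets, 2 passed 2-fold upward and none downward (median 0.13). ERO1L, an ER oxidase and CHOP target, had 8.73 at 24 h against 7.65 at 3 h, and SLC7A11 was the other. DDIT3, CHOP, was already high at 3 h, with 9.95 at 24 h against 9.29 at 3 h and 6.44 on the control array. GDF15, the cytokine NAG-1, had 11.65 at 24 h against 10.66 at 3 h, 1.99-fold higher and just under the threshold. PPP1R15A, GADD34, had 7.13 at 24 h against 6.46 at 3 h. The 12 aminoacyl-tRNA synthetase genes lay between -0.03 and 0.51, and the 3 serine synthesis genes PSPH (-0.63), PSAT1 (-0.50) and PHGDH (-0.42) were the lowest of the list. GADD45A, the growth arrest gene, differed by 0.39.

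Some genes had their highest value of the 3 arrays on the BP 3 h array, and how many did so was not counted. Replication and repair genes were among them, such as DTL, with 9.10 at 3 h, 5.11 at 24 h and 8.62 on the control array. Others came from further lists. HES1, the Notch target and transcriptional repressor, had 7.46 at 24 h against 8.93 at 3 h, and 6.31 on the control array. MT1X, a metallothionein, had 9.21 at 24 h against 10.66 at 3 h, and SLC30A1, which exports zinc from the cell, had 7.53 at 24 h against 8.85 at 3 h, with control values of 8.51 and 6.97. ARRDC3, an arrestin-domain gene, had 9.65 at 24 h against 10.75 at 3 h, with 8.72 on the control array. JUN (8.48 at 24 h against 9.32 at 3 h), DUSP1 (9.97 at 24 h against 10.79 at 3 h) and HEY1 (6.66 at 24 h against 7.57 at 3 h) differed the same way within 2-fold, with control values of 7.30, 7.74 and 5.23. By list, 0 of 47 immediate-early genes passed 2-fold in either direction (median 0.00). Of 27 Notch, ID and TGF-β/BMP feedback genes 2 were lower, HES1 and PMEPA1 (6.75 at 24 h against 8.54 at 3 h), and none was higher (median -0.09). PMEPA1 is also in the androgen-responsive list, and its control value of 8.96 lay above its 3 h value. Of 24 metallothioneins and zinc transporters 3 were lower and none was higher (median -0.01). The third of these, SLC30A4 (8.46 at 24 h against 10.12 at 3 h), had a control value of 10.13, as high as at 3 h, and among 11 metallothionein genes MT1X was alone past 2-fold, with MT2A at -0.41 and MT1F at -0.13.

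Of 49 apoptosis genes 3 were higher and 2 lower (median 0.12). All 6 genes for receptors of the death receptor family, the decoy receptor TNFRSF10D included, had a higher value at 24 h, of which TNFRSF10D and the death receptor TNFRSF21, DR6 (8.74 at 24 h against 7.40 at 3 h), passed 2-fold, and FAS (0.72) and TNFRSF10B, DR5 (0.72), did not. PARP4 had 9.28 at 24 h against 7.76 at 3 h. PARP1 (8.04 at 24 h against 9.25 at 3 h) and BIRC5, survivin (6.15 at 24 h against 7.95 at 3 h), were the lower members, the first also a repair gene and the other also a mitosis gene. None of 10 caspases passed 2-fold, with CASP4 (0.79) at the top and CASP8 at 0.17, and none of 16 BCL2 family genes did. The stress kinase genes MAPK8, JNK1 (-0.49), MAPK9, JNK2 (-0.01), and MAP3K5, ASK1 (0.16), lay within 2-fold.

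Among autophagy and lysosome genes 5 of 59 were higher and none was lower (median 0.11). GPNMB, a glycoprotein of lysosomes and melanosomes at 7p15, had 9.44 at 24 h against 6.73 at 3 h, a 6.51-fold higher value. LAMP3 had 6.80 at 24 h against 4.63 at 3 h, and OPTN and WIPI1, both of autophagosomes, were higher by 1.28 and 1.10. None of the 16 measured lysosomal enzymes or 6 proton pump subunits passed 2-fold. Of 34 heat shock chaperones 2 were higher, the small heat shock proteins CRYAB (7.96 at 24 h against 6.29 at 3 h) and HSPB8 (6.18 at 24 h against 4.58 at 3 h), and the median was 0.00. Of 45 glycolysis and hypoxia genes 3 were higher and 1, ARRDC3, was lower (median 0.00). The higher ones were the vascular ligand ANGPT2 (8.07 at 24 h against 5.49 at 3 h), the collagen hydroxylase P4HA2 (8.72 at 24 h against 6.52 at 3 h) and VEGFA (9.23 at 24 h against 8.19 at 3 h), while none of 16 glycolytic enzymes passed 2-fold and 12 of them had a lower value. Of 40 interferon-stimulated and Schlafen genes 2 were higher, SLFN5 (9.89 at 24 h against 7.72 at 3 h) and GBP2 (6.83 at 24 h against 5.66 at 3 h), with a median of 0.00 and equal values for IFIT1, ISG15 and MX1.

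The other genes with the largest increases came from no list. DIO3, the deiodinase that inactivates thyroid hormone, at 14q32, had 9.21 at 24 h against 5.93 at 3 h, a 9.71-fold higher value and the 1 gene past 8-fold in this direction. AGPAT5, an acyltransferase of phospholipid synthesis, had 10.46 at 24 h against 7.96 at 3 h, UST, a sulfotransferase, 7.80 at 24 h against 5.42 at 3 h, and NEBL, nebulette, 8.71 at 24 h against 6.60 at 3 h. CD55, an inhibitor of complement on the cell surface, had 8.00 at 24 h against 6.01 at 3 h. GPR1 (2.03), AGPAT9 (1.96), GALNT10 (1.95), C9orf150 (1.91), FAM129A (1.83), DUX4 (1.80) and the collagenase MMP13 (1.78) complete the 20. Of the 156 genes called higher 120 were in none of the lists, and of the 460 called lower 257.

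Lists of housekeeping genes had medians close to 0. None of 65 ribosomal protein genes, 60 oxidative phosphorylation subunits or 41 proteasome subunits passed 2-fold in either direction, with medians of 0.00, -0.045 and -0.0021. Ribosomal protein genes lay between -0.24 and 0.10. Of the oxidative phosphorylation subunits 38 had a lower and 5 a higher value at 24 h, with NDUFB3 farthest at -0.97. None of 19 clock genes and 16 polyamine enzymes passed 2-fold (medians 0.00 and 0.07), where NR1D2 (0.98) and SAT1 (0.81), the enzyme that acetylates spermidine, were highest. Among 26 markers of other prostate cancer lines and mesenchymal cells LCN2 was higher (1.01) and FN1, fibronectin, lower (8.66 at 24 h against 10.04 at 3 h), and VIM differed by 0.36. Among 24 markers of fibroblasts, endothelium and blood ACTA2 was higher (9.31 at 24 h against 7.75 at 3 h), 16 had equal values and the medians of both marker lists were 0.00. The plot of the gene lists sets all 29 side by side.

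**Figure D5:**
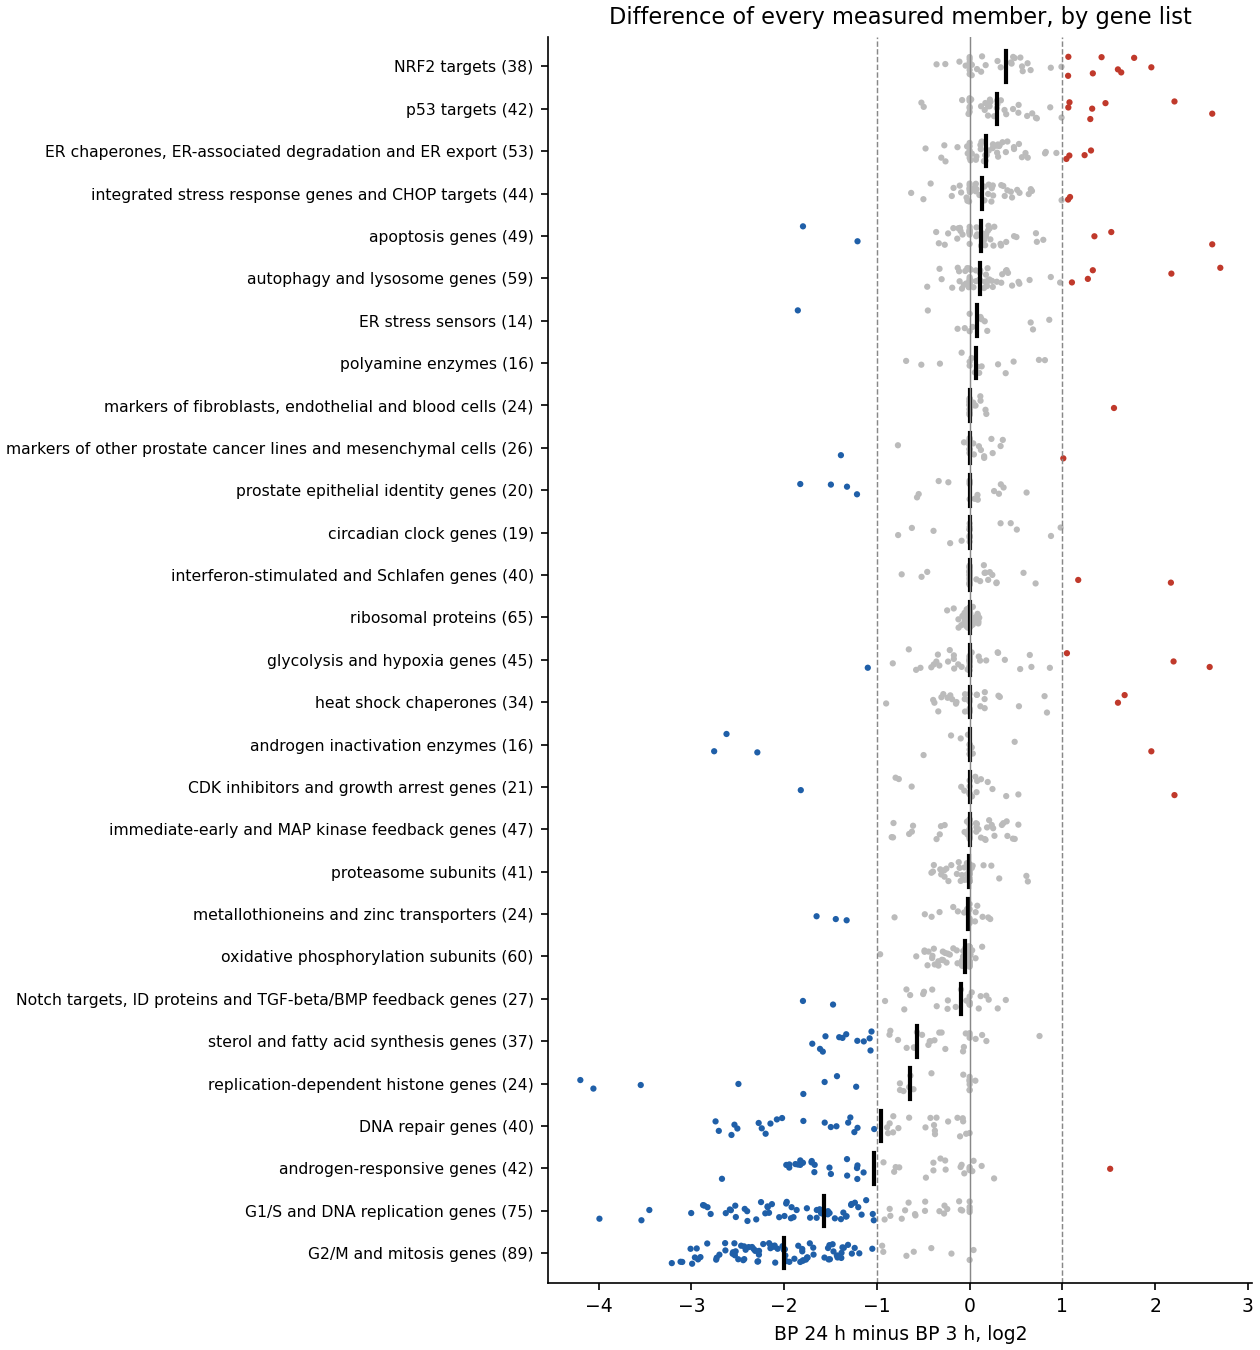
Difference of every measured member (points, BP 24 h minus BP 3 h, log2) in 29 gene lists, with the number measured in brackets and the median as a black bar; dashed lines mark 2-fold, red points are higher and blue points lower by at least that. The G2/M list has the lowest median, -2.00, and the NRF2 list the highest, 0.39.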

How the data were processed

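LNCaP cells treated with BP for 24 h and for 3 h and control cells were each measured on 1 array. The authors deposited log2 values per transcript cluster, which were taken unchanged. Expression Console and RMA appear in the submitters' processing notes, whereas the study's methods name MAS and a per-chip median normalization in GeneSpring, and which of these made the values is not settled. Medians over all clusters were 5.48 at BP 24 h, 5.46 at BP 3 h and 5.48 in control cells. Further tables hold the authors' own comparisons (log2 ratios and folds), and from these only gene symbols and cytobands were taken. Clusters with several symbols (1904) or none (11306) were left out of gene counts, and no genome build for the annotation is stated in the sources used here.

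The BP 3 h value was subtracted from the BP 24 h value without further normalization or filter, and at least 2-fold was counted. Genes named are the 20 with the largest difference in each direction among genes whose higher value on the BP arrays lay above the median, up to 6 members of each list, genes the study names, and contrasting members chosen after their values were seen. The 29 lists, the complexes within them and the motifs were chosen with earlier results of these data known. Current symbols were found for 17872 genes in a RefSeq table, used for names, neighbour order and promoters. Alternatives were 2 centrings, quantile normalization, averaged clusters, all clusters, a level filter and thresholds of 1.5-fold and 3-fold. Values of some single genes are not reported here. The calculation was tested on simulated data. Python 3.11.15, numpy 2.4.6, pandas 2.3.3 and matplotlib 3.10.9 were used. The number of arrays limits the precision.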

Additional observations from a re-analysis of the deposited data

How the results depend on the processing

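The counts of 156 genes higher and 460 lower depend on the threshold. At 1.5-fold they were 471 higher and 983 lower, and at 3-fold 35 higher and 212 lower. Under the other alternatives they stayed within 1.5 times, at 120 to 181 higher and 370 to 476 lower. The SD between clusters of the same gene, 0.16, was chosen as the spread after the data were seen. It comes from the same arrays and includes clusters with identical differences, so it does not measure the spread between replicate arrays. Among list medians 3 moved by more than 0.16. All 3 did so when only members above the median level were kept, to -1.21 for androgen-responsive genes, 0.22 for interferon-stimulated and Schlafen genes, and 0.86 for markers of fibroblasts, endothelial and blood cells, where 2 genes are left. Of 804 values of 201 named genes, 800 moved by less, but many of these could not have moved farther. The 2 centrings shift all genes by the same small amount, and averaging changes only genes with several clusters. Centring on the 75th percentile put the median of all genes at 0.055. Differences next to 0, such as that of CDKN2A (-0.01), can therefore change sign. The 4 that moved by more came from averaging clusters, and none of these 4 changed sign: DUX4 (1.11), GALNT10 (1.61), RBL1 (-0.91) and SRXN1 (0.82). No paired analysis was possible because each time has 1 array. Values near the floor of the array limit what can be called, as the shares by level show.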

Other observations

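Measured genes with a current symbol were placed in the RefSeq order, and genes without a value were skipped, so neighbours here need not adjoin on the chromosome. Neighbours in this order were called together in places, and these values were noticed after the data were seen. Of the 17786 placed genes, 148 passed 2-fold upward, and 7 of these (4.73%) lay in a pair of neighbours. Of the 451 that passed it downward, 50 (11.1%) did. The number of such pairs that random placement would give was not calculated. Whether called genes lie side by side more often than that was therefore not tested. The 7 higher genes all come from the stretches on 8p23.1 and 19p13.3 given below. On 8p23.1, MCPH1 had 8.99 at 24 h against 7.61 at 3 h, beside ANGPT2 and AGPAT5, whose differences were 2.59 and 2.50. ANGPT2 lies within an intron of MCPH1. The next measured genes were CSMD1 (0.08) and XKR5, which had equal values on both BP arrays. On 19p13.3, SGTA (9.75 at 24 h against 8.68 at 3 h), THOP1 (9.52 at 24 h against 7.92 at 3 h), ZNF554 (7.25 at 24 h against 5.99 at 3 h) and ZNF555 (7.51 at 24 h against 6.48 at 3 h) were higher in a row, with SLC39A3 (0.00) before and ZNF556 (0.11) after them. Neighbours in the order of placed genes that were lower together include KLK3 and KLK2, UGT2B17 and UGT2B10, and FEN1 and FADS2.

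DUX4, a repeated homeobox gene, was higher on all 14 of its clusters, by 0.51 to 1.80. TRIM49 (6.17 at 24 h against 4.61 at 3 h) and TRIM43 (4.64 at 24 h against 3.62 at 3 h), genes known as targets of DUX4, were higher by 1.57 and 1.02. Other known targets did not follow, with ZSCAN4 at 0.10 and PRAMEF2, TRIM48 and DUXA at equal values near the floor of the array. The copies of DUX4 and of these TRIM genes resemble each other, so clusters can share signal.

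Clusters outside the gene counts also differed. Of 11306 clusters without a symbol, 119 (1.05%) passed 2-fold upward and 330 (2.92%) downward at 24 h. Among the 20087 clusters with 1 symbol the shares were 0.856% and 2.37%. Of the 119 and 330, 93 and 302 were among 4942 clusters without a transcript classification. The 5081 clusters classified as predicted had shares of 0.394% and 0.413%. Cluster 7896712, without annotation, had 7.53 at 24 h against 2.35 at 3 h, a difference of 5.18 that exceeds that of any named gene. Cluster 7914878 had 3.90 at 24 h against 8.18 at 3 h.

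The deposited values repeat more than continuous values would. Among 33297 clusters the BP 24 h array held 17474 different values and the BP 3 h array 18527, and the value 1.99 stood for 317 clusters at 24 h and 299 at 3 h. Of the genes, 43.2% had equal values on both arrays. The origin of the repeats was not tested.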
